A study of Mus musculus with 6 samples.

Results

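The genes described here encode enzymes and membrane proteins of the lysosome, in kidneys of mice that carry a heart muscle disease transgene and in kidneys of their controls. They were given as a list of 34 gene symbols, and 32 of them were found among the 7373 rows of the deposited table. Npc1 and Arsa were not analysed here. The transgenic mice were adult FVB/N animals, an inbred strain, that overexpress a form of the chaperone CryAB with the missense change R120G. The α-myosin heavy chain promoter directs the transgene to cardiomyocytes, so the kidney is not its target, and the kidneys were taken before heart failure set in. The columns used are headed Pre_IRI in both groups, an abbreviation that the labels do not spell out. The control mice were FVB/N males of the same age, and the transgenic mice were male too. Each group gave 3 samples of RNA from frozen whole kidney, which was not divided into cortex and medulla before extraction, as far as the labels say. The labels do not say whether each sample is a separate animal, and p-values then measure only the spread between these samples.

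Lysosomes are acidic organelles in which cells break down protein, sugar chains and lipid. Their enzymes are made in the endoplasmic reticulum, most are tagged with mannose 6-phosphate and carried to the organelle by receptors for that tag, and a coat of glycoproteins shields the lysosomal membrane from them. Proximal tubule cells, the most abundant cells of the kidney cortex, are rich in lysosomes, where they digest the protein they retrieve from the filtrate. The transcription factor TFEB and its relatives raise many of these genes together by binding sites with the core CACGTG near their starts.

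The promoters are shown first because that shared site is the best known sequence feature of the family. Promoter windows of 300 bases, from 250 before to 50 after a transcript start, were taken from RefSeq (GRCm38.p6) and were matched for 27 of the 32 genes. CACGTG, which reads the same on both strands, was found in 11 of these 27 (40.7%), against 12.7% of the 5822 tested genes with a window and 8.09% of all 27025 genes with a window. The longer TCACGTGA, which contains CACGTG, was found in 4 of 27 (14.8%), against 2.49% of tested genes and 1.12% of all genes. That motif with a further G before it and C after it was found in 1 of 27 (3.70%), the Cln3 window, against 0.893% of tested genes and 0.37% of all genes. A match describes the letters of the window and is not evidence of binding. The 27 genes had 31 windows, so some had more than 1. The windows with CACGTG of Ctsa, Cln3, Lgmn and Ctsl lie wholly within the bounds of their genes. Their starts are therefore not the outermost ones. The 11 windows with CACGTG held 18 cores, 5 of them within TCACGTGA, and 13 were centred within 100 bases of the start of their window's transcript. The 5 windows that hold several cores are printed whole, 5′ to 3′ on the strand of the gene, with CACGTG or TCACGTGA in capitals. That of Lamp1 is chr8:13158911-13159210 (plus strand), that of Ctsa chr2:164833523-164833822 (plus), that of Ctsd chr7:142387778-142388077 (minus), that of Mcoln1 chr8:3500269-3500568 (plus) and that of Cln3 chr7:126583187-126583486 (minus), all in GRCm38.p6.
Lamp1: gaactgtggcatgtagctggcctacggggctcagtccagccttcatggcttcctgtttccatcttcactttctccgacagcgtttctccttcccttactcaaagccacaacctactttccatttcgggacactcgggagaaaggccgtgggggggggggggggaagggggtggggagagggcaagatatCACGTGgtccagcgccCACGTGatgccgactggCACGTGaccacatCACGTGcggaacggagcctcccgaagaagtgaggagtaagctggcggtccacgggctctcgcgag
Ctsa: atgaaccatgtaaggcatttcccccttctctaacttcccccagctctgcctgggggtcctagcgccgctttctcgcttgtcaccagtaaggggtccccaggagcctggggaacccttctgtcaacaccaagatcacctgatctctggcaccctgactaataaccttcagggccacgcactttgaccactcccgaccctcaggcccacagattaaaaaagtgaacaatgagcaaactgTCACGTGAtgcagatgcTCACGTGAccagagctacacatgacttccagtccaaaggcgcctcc
Ctsd: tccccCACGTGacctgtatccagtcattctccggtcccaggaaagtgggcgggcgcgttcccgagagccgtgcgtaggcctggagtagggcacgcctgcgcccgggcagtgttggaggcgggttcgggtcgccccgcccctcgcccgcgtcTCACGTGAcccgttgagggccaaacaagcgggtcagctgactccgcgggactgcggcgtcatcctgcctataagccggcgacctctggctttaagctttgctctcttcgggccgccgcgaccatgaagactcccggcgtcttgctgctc
Mcoln1: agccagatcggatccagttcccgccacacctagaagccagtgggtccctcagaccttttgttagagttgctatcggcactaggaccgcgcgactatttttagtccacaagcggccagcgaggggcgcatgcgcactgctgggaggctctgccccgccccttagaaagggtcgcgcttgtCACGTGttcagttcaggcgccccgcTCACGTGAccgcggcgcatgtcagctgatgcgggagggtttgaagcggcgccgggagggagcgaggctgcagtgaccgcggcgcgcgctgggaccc
Cln3: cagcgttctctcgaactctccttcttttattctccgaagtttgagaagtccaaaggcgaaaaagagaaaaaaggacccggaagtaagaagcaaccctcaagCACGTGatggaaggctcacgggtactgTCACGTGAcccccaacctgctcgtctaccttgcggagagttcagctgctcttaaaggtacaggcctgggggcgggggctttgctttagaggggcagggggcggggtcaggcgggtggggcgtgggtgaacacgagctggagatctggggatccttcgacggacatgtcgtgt

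Lamp1 held 4 cores, centred at -58, -42, -25 and -12 from the start. Ctsa held a pair of TCACGTGA sites around the start of this transcript, at -9 and 8. The other 6 windows held 1 core each, at -46 in Lgmn, -45 in Glb1, -137 in Gaa, -70 in Naglu, -26 in Sgsh and -233 in Ctsl. They are shown with 10 bases on either side, with the core in capitals, to let the flanks be compared.
Lgmn: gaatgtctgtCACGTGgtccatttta
Glb1: gcttctgagtCACGTGgcctacagag
Gaa: tctgtgcgatCACGTGtttgactctg
Naglu: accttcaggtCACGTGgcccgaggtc
Sgsh: gcctgccgtgCACGTGaccgtgggga
Ctsl: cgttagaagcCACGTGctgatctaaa

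The libraries held 23500918 to 31708474 estimated read counts in transgenic kidneys and 28048168 to 47558065 in control kidneys, and the 32 genes took 1.08% to 1.18% and 1.09% to 1.22% of them. The lowest count of any of the 32 in any library was 434, and none was removed by the filter on low counts. Control 3 stood apart: all 178 rows of chromosomes X and Y were at 0 there, and those rows were left out of the test. None of the 32 genes is on X or Y; they lie on 14 chromosomes. The tissue label was met by kidney markers: 20 of 20 proximal tubule genes were listed, with summed levels of 35919 to 40410 CPM (counts scaled to a common library total, with TMM factors) in transgenic kidneys and 37042 to 39682 CPM in control kidneys. All 6 thick ascending limb, 5 principal cell and 6 intercalated cell genes were listed too. Other kidney lists were there in part: 3 of 4 distal convoluted tubule, 4 of 6 endothelial and 2 of 5 podocyte genes.

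No lysosomal gene differed between transgenic and control kidneys by more than the spread between kidneys. None of the 32 reached 0.05 after Benjamini-Hochberg adjustment over 7194 rows (quasi-likelihood test of edgeR), where 0.0139% of all rows did, a single gene, Ren1. The smallest adjusted p among the 32 was 0.997, and none had an unadjusted p under 0.05, against 1.82% of all rows. DESeq2 called none of the 32 either, with none at an unadjusted p under 0.05. In all 32 genes the transgenic values overlapped the control values, while 5.98% of all rows had no overlap. Log2 fold changes ran from -0.22 (Arsb) to 0.11 (Ctsz), 14 above and 18 below 0, with a median of -0.01; the median of all rows was 0.00. The 95% interval of the fold change lay within 1.5-fold either way in each of the 32 genes, and in 89.6% of all rows. The interval that reached lowest was that of Asah1, from 0.671-fold to 1.17-fold, and the one that reached highest was that of Sgsh, from 0.834-fold to 1.35-fold. These intervals are for 1 gene at a time. Standard errors ran from 0.07 to 0.19 on the log2 scale.

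**Figure D1:**
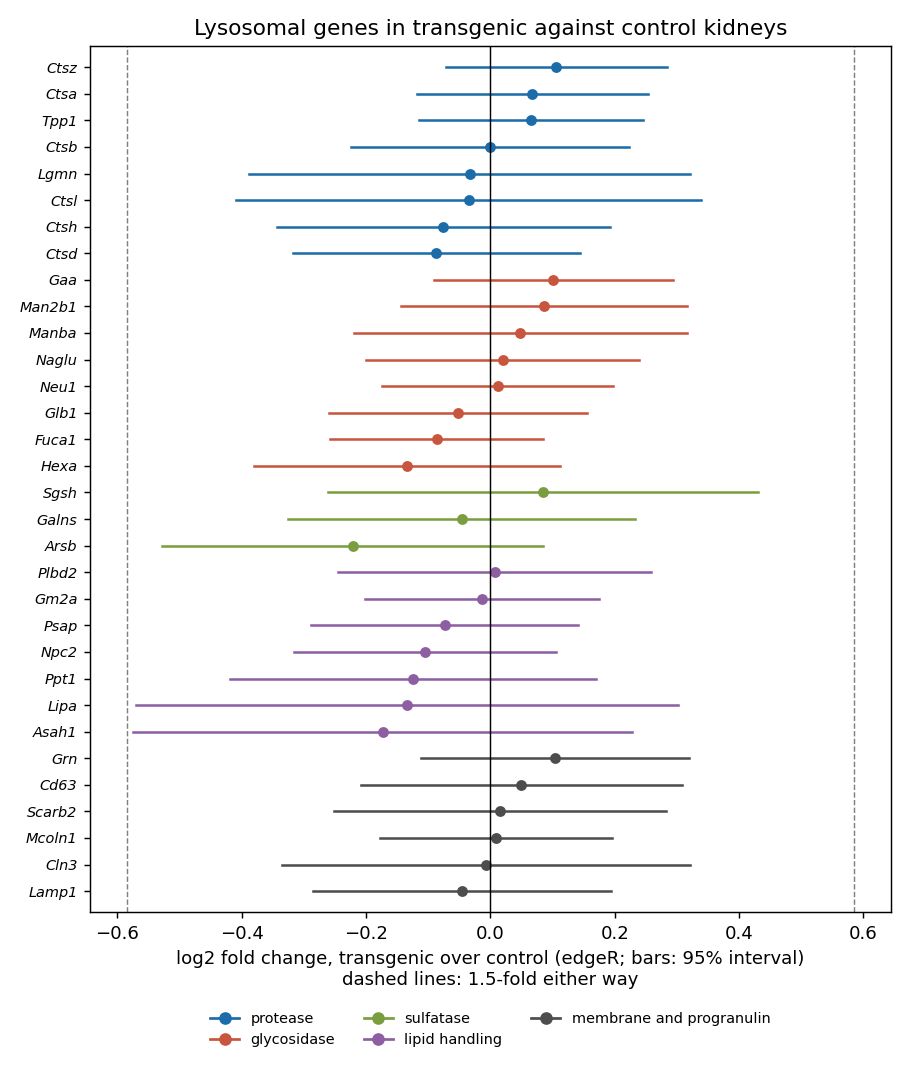
Log2 fold change of each of the 32 lysosomal genes, transgenic over control, with its 95% interval from the edgeR fit; colours mark the roles and dashed lines a 1.5-fold difference. All points lie between -0.22 and 0.11, and all intervals cross 0 and end inside the dashed lines.

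Summed over the 32 genes, the level was 11384, 11090.1 and 11863 CPM in transgenic kidneys 1, 2 and 3, against 11590.4, 10809 and 12447 CPM in control kidneys 1, 2 and 3. The transgenic values lay within the range of the control values. The means were 11446 ± 390.3 CPM in transgenic and 11616 ± 819.6 CPM in control kidneys (SD, n = 3 each), a difference of -1.46% that did not pass an exact two-sided permutation test (p = 0.8; adjusted p = 1 over the 6 sums of this kind). With 3 samples against 3 that test cannot go below 0.1, so no sum could have passed at 0.05. The size and sign of the difference depended on single libraries: the log2 ratio of the mean sums was -0.02 with all 6 kidneys, 0.03 without control 3, -0.07 without control 2, -0.05 without transgenic kidney 3 and 0.00098 without transgenic kidney 2. Among the 5 role groups the differences of the sums ran from -6.52% (sulfatases) to 0.73% (membrane proteins and progranulin), with exact permutation p-values of 0.3 to 1. In whole kidney, fewer cells of a type and less RNA per cell cannot be told apart.

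**Figure D2:**
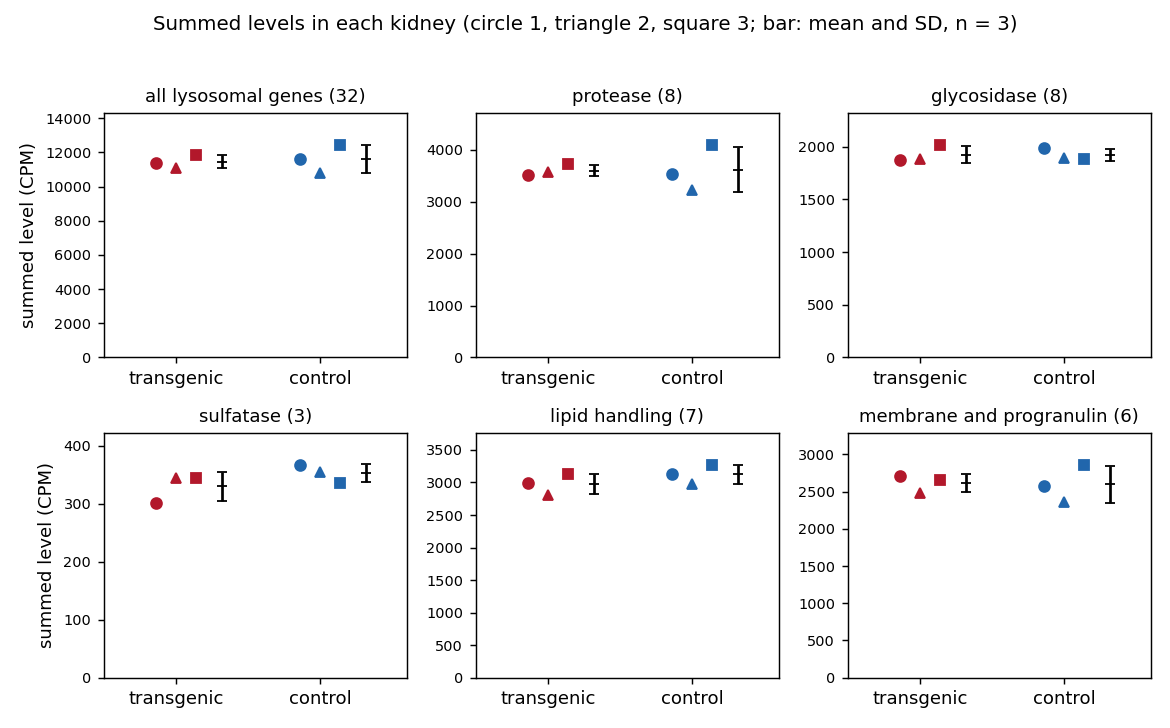
Summed level in CPM in each kidney, for all 32 genes and for the 5 role groups, with the number of genes in brackets, transgenic left of control; symbols mark the sample number, which does not pair samples, and bars are mean and SD (n = 3). The groups overlap in each panel, and control 3 is the highest point for all genes, proteases, lipid genes and membrane proteins.

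By level per length, the family spanned a wide range in these kidneys. CPM per kilobase of transcript, averaged over the 6 kidneys, ran from 1162 for Cd63 to 4.16 for Scarb2. Of the 32 genes, 27 were above the median of all tested rows with a transcript length and 6 were above the 95th percentile. These 6 were Cd63, Psap (773), Lamp1 (508), Lgmn (408), Neu1 (360) and Ctsd (339), and the lowest besides Scarb2 were Sgsh (5.80) and Cln3 (7.10). The level of a gene depends on which transcript length is used, so near neighbours in this order are not ranked.

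Proteases were the group with the highest summed level. Of the 8, 3 had a log2 fold change above 0 and 5 below (median -0.02); without control 3 all 8 were above 0 (median 0.09), and without control 2 the median was -0.11. Ctsz, the carboxypeptidase cathepsin Z (gene ID 64138; chromosome 2, 174427494 to 174439039 in mm10, the build of all coordinates here), measured 259.2, 285 and 279 CPM in transgenic kidneys 1, 2 and 3, against 259.5, 260.5 and 245 CPM in control kidneys 1, 2 and 3. The highest values were those of transgenic kidneys 2 and 3, and transgenic kidney 1 lay between controls 3 and 1. Its log2 fold change of 0.11 ± 0.08 (SE) was the highest of the 32, with an edgeR adjusted p of 0.997. Ctsd, the aspartic protease cathepsin D (gene ID 13033; chromosome 7, 142375910 to 142387827), stood at 679.7, 704 and 715 CPM in transgenic kidneys, against 732, 661 and 835 CPM in control kidneys (log2 fold change -0.09 ± 0.10, SE). All 3 transgenic values lay between controls 2 and 3. Lgmn, legumain or asparaginyl endopeptidase, which cuts cathepsins to their mature chains (gene ID 19141; chromosome 12, 102394082 to 102439728), stood at 807, 780.2 and 823 CPM in transgenic kidneys, against 764, 659 and 1042 CPM in control kidneys. Its SD was 21.6 CPM in transgenic and 198 CPM in control kidneys, and its log2 fold change was -0.03 ± 0.16 (SE). Without control 3 that value was 0.17.

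The other proteases were Ctsa, the carboxypeptidase that protects β-galactosidase and neuraminidase (log2 fold change 0.07), the tripeptidyl peptidase gene Tpp1 (0.07) and the cysteine cathepsins Ctsb (0.00), Ctsl (-0.04) and Ctsh (-0.08). Ctsl and Ctsh varied with control 3 as Lgmn did. Ctsl stood at 213, 185 and 219 CPM in transgenic kidneys, against 199, 166 and 267 CPM in control kidneys, and Ctsh at 196, 187 and 197 CPM, against 193, 177 and 241 CPM. In both genes control 3 was the highest kidney and control 2 the lowest. Without control 3 their log2 fold changes were 0.17 and 0.06.

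Of the 8 glycosidases, which remove sugars from the ends of glycans, 5 had a log2 fold change above 0 and 3 below (median 0.02); without control 3 they were 4 and 4 (median -0.01), and without transgenic kidney 3 they were 2 and 6 (median -0.02). Hexa, the α subunit of β-hexosaminidase (gene ID 15211; chromosome 9, 59539540 to 59565109), stood at 27.7, 32.1 and 28.8 CPM in transgenic kidneys, against 34.4, 28.9 and 33.9 CPM in control kidneys, a log2 fold change of -0.13 ± 0.11 (SE). Gaa, acid α-glucosidase, which degrades glycogen in lysosomes (gene ID 14387; chromosome 11, 119267963 to 119285458), stood at 134, 128 and 134 CPM in transgenic kidneys, against 127, 129 and 114 CPM in control kidneys (0.10 ± 0.08, SE). A single control value, that of control 2, lay above the lowest transgenic value, and without control 3 the log2 fold change was 0.05. Man2b1, lysosomal α-mannosidase (gene ID 17159; chromosome 8, 85082730 to 85098739), stood at 179, 203 and 208 CPM in transgenic kidneys, against 202, 188 and 166 CPM in control kidneys, with a log2 fold change of 0.09 ± 0.10 (SE) and of 0.01 without control 3.

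Fuca1, α-L-fucosidase (gene ID 71665; chromosome 4, 135920726 to 135940300), stood at 283, 283 and 301 CPM in transgenic kidneys, against 316, 307 and 298 CPM in control kidneys, a log2 fold change of -0.09 ± 0.07 (SE). Transgenic kidney 3 and control 3 were the 2 values that kept the groups from parting. Neu1, the sialidase neuraminidase 1 (gene ID 18010; chromosome 17, 34931253 to 34937297), was the most abundant glycosidase per length and one of the least variable genes: it stood at 869.6, 867 and 948 CPM in transgenic kidneys, against 904, 875 and 884 CPM in control kidneys (0.01 ± 0.08, SE). The remaining 3 were the β-galactosidase gene Glb1 (-0.05), the β-mannosidase gene Manba (0.05) and Naglu, which removes N-acetylglucosamine from heparan sulfate (0.02).

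The sulfatases, which strip sulfate from glycosaminoglycans, had 3 listed genes, with a median log2 fold change of -0.05, which was -0.08 without control 3, -0.10 without transgenic kidney 2 and 0.03 without control 1. Arsb, arylsulfatase B (gene ID 11881; chromosome 13, 93771679 to 93943016), stood at 98.5, 107 and 123 CPM in transgenic kidneys, against 119, 113 and 151 CPM in control kidneys. Transgenic kidneys 1 and 2 were the lowest and control 3 the highest, while transgenic kidney 3 lay above controls 1 and 2. Its log2 fold change of -0.22 ± 0.13 (SE) was the lowest of the 32 (adjusted p = 0.997, edgeR), with a 95% interval from 0.694-fold to 1.06-fold, and without control 3 it was -0.08. Galns, which acts on keratan sulfate (gene ID 50917; chromosome 8, 122578237 to 122611701), stood at 180.5, 209 and 195 CPM in transgenic kidneys, against 223, 215 and 166 CPM in control kidneys (-0.05 ± 0.12, SE). Sgsh, the sulfamidase of heparan sulfate (gene ID 27029; chromosome 11, 119343489 to 119355510), stood at 22.6, 29.4 and 26.1 CPM in transgenic kidneys, against 25.4, 28.0 and 20.2 CPM in control kidneys (0.08 ± 0.15, SE). In Galns and Sgsh control 3 was the lowest kidney, whereas in Arsb it was the highest. Without control 3 Galns was at -0.17 and Sgsh at -0.04.

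Genes of lipid breakdown and export had 7 listed members, 6 of them with a log2 fold change below 0 (median -0.10). Without control 3 that median was -0.02, with 5 below 0. Psap, prosaposin, whose pieces present sphingolipids to their hydrolases (gene ID 19156; chromosome 10, 60277628 to 60302600), had the highest level by CPM of the 32 at 2017, 1866 and 2119 CPM in transgenic kidneys, against 2121, 2004 and 2189.8 CPM in control kidneys (-0.07 ± 0.09, SE). Npc2, which hands cholesterol over for export from the lysosome (gene ID 67963; chromosome 12, 84754559 to 84773112), stood at 147, 169 and 154 CPM in transgenic kidneys, against 165, 158 and 183 CPM in control kidneys (-0.10 ± 0.09, SE; -0.04 without control 3). Asah1, acid ceramidase (gene ID 11886; chromosome 8, 41340646 to 41397644), stood at 73.1, 69.6 and 74.0 CPM in transgenic kidneys, against 79.4, 60.8 and 104 CPM in control kidneys (-0.17 ± 0.18, SE). The 3 transgenic values of Asah1 lay close together between control 2 and control 1, and control 3 was the highest; without control 3 the log2 fold change was 0.05. Lipa, acid lipase, stood at 78.1, 96.9 and 117 CPM in transgenic kidneys, against 107, 83.4 and 131 CPM in control kidneys, and had the largest standard error of the 32 (-0.13 ± 0.19). Among the rest, the palmitoyl thioesterase gene Ppt1 was at -0.12 (-0.02 without control 3 and -0.24 without transgenic kidney 3), the GM2 activator gene Gm2a at -0.01 and Plbd2, of the phospholipase B family, at 0.01.

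Membrane proteins, with progranulin, had 6 listed genes, 4 with a log2 fold change above 0 and 2 below (median 0.01). Without control 3 they were 5 and 1 (median 0.05), and without control 2 they were 3 and 3 (median -0.01). Cd63, a tetraspanin of late endosomes and lysosomes (gene ID 12512; chromosome 10, 128896231 to 128912822), stood at 1372, 1193 and 1206 CPM in transgenic kidneys, against 1232, 1063 and 1348 CPM in control kidneys (0.05 ± 0.11, SE). Grn, progranulin, a glycoprotein that is cut to granulins in the lysosome (gene ID 14824; chromosome 11, 102430507 to 102436809), stood at 162, 154 and 178 CPM in transgenic kidneys, against 166, 153 and 141 CPM in control kidneys (0.10 ± 0.09, SE). Controls 1 and 2 lay within or next to the transgenic range, and without control 3 the log2 fold change was 0.05. Lamp1, a main glycoprotein of the membrane coat, was at -0.05; it stood at 1092, 1055 and 1197 CPM in transgenic kidneys, against 1097, 1063 and 1290.3 CPM in control kidneys. Mcoln1, the calcium channel mucolipin 1, showed the smallest spread of the 32, with 42.8, 40.4 and 43.9 CPM in transgenic kidneys, against 41.5, 42.6 and 42.2 CPM in control kidneys (0.01 ± 0.08, SE). Scarb2, LIMP-2, the receptor that carries β-glucocerebrosidase to lysosomes, was at 0.02, and Cln3, a membrane protein mutated in a juvenile neuronal storage disease, was at -0.01.

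**Figure D3:**
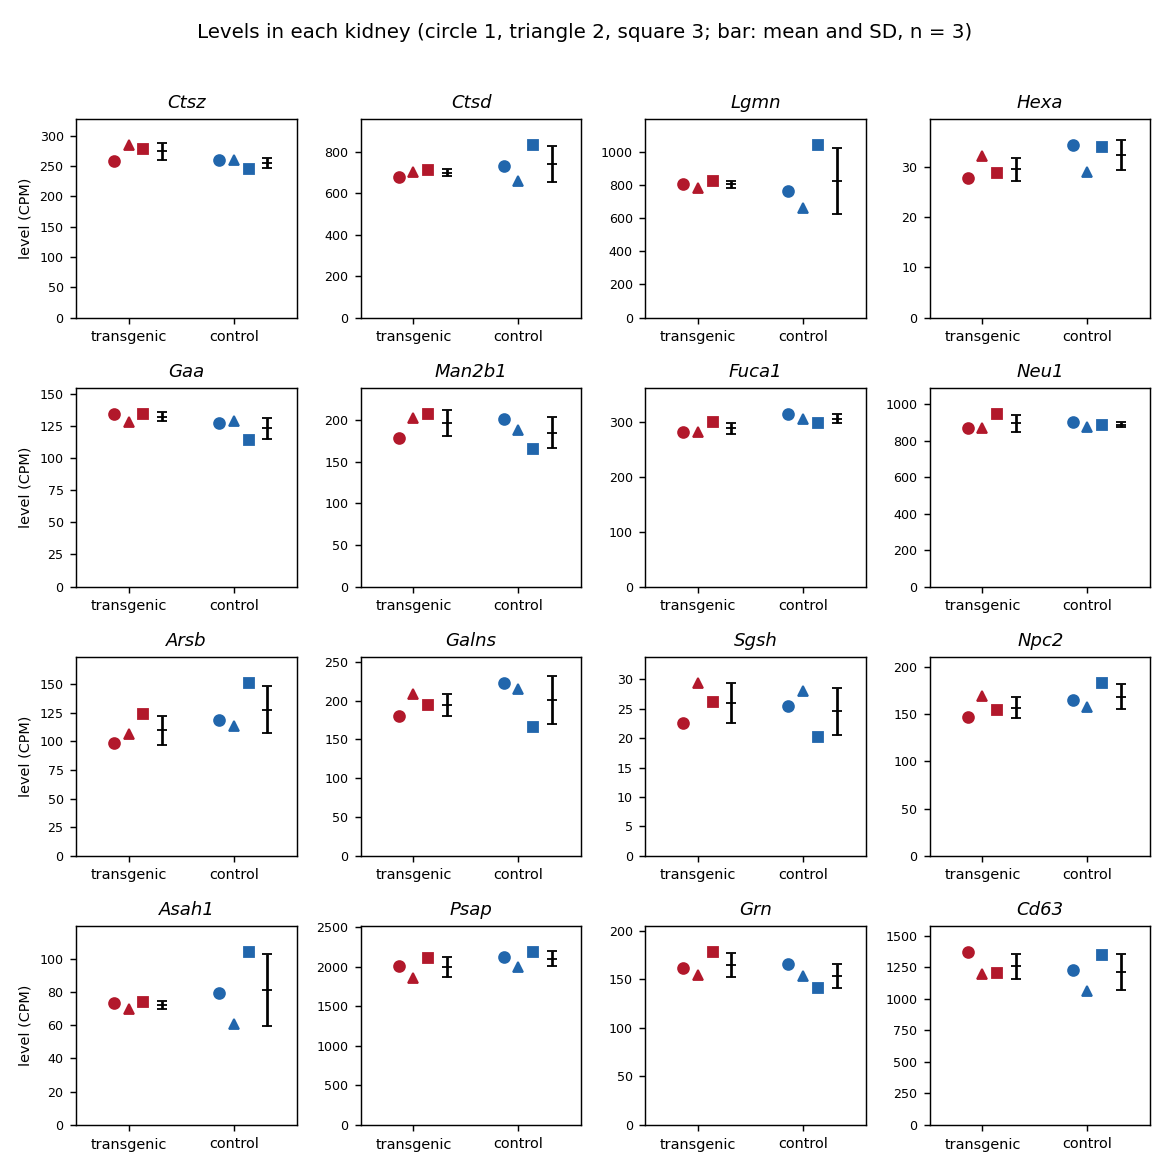
Level in CPM of 16 lysosomal genes in each kidney, transgenic left of control; symbols mark the sample number, which does not pair samples, and bars are mean and SD (n = 3). The 2 groups overlap in each panel, and the 3 control points of Lgmn, Asah1 and Arsb are farther apart than their 3 transgenic points, with control 3 on top.

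The larger differences were among the control kidneys. Over the 6 kidneys the ratio of the highest to the lowest level of a gene ran from 1.09 (Mcoln1) to 1.71 (Asah1), with a median of 1.25, against 1.29 over all rows. The SD was larger in control than in transgenic kidneys in 26 of 32 genes (81.2%), against 70.3% of all rows. Control 3 was the highest kidney for 13 of the 32 genes (40.6%) and the lowest for 9 (28.1%), where it was the highest for 34.8% and the lowest for 32.6% of all rows. It was above the mean of controls 1 and 2 in 19 genes, led by Asah1 (log2 difference 0.57), Ctsl (0.55), Lgmn (0.55) and Lipa (0.46), and below it in 13, led by Sgsh (-0.40), Galns (-0.40), Plbd2 (-0.33) and Manba (-0.30). Control 2 was the lowest kidney for 10 genes (31.25%), where it was the lowest for 20.5% of all rows. The division by control 3 ran through the roles: 7 of 8 proteases were above, while 6 of 8 glycosidases, all but Hexa and Glb1, were below. In the other roles those below were Gm2a and Plbd2 (lipid), Cln3 and Grn (membrane and progranulin) and Galns and Sgsh (sulfatases). Some lay close to 0, such as Neu1 (-0.0088) and Gm2a (-0.0036) below it and Mcoln1 (0.0064) above it.

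**Figure D4:**
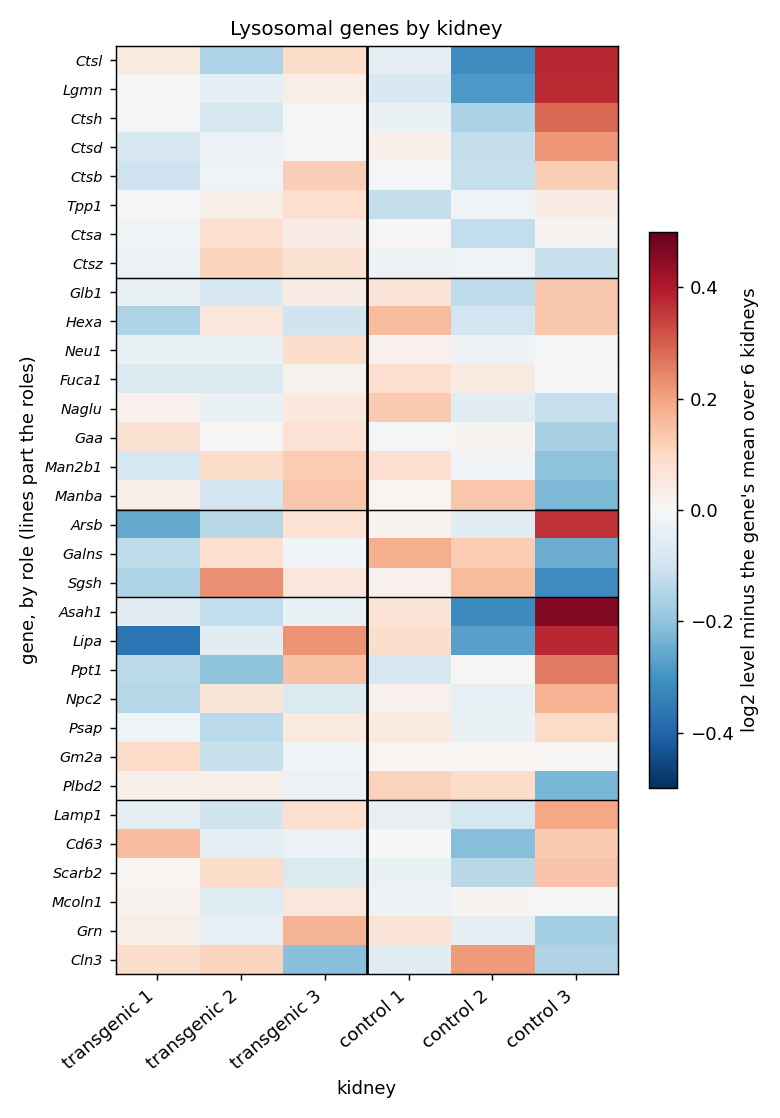
Log2 level of each of the 32 genes in each kidney minus the gene's mean over the 6 kidneys, transgenic columns left of control columns, genes grouped by role and sorted by the difference of control 3. In Ctsl, Lgmn and Asah1 control 3 is the highest and control 2 the lowest column, and in Lipa transgenic kidney 1 is the lowest.

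GC content moved with this difference. The transcripts of the 19 genes above in control 3 had a median GC content of 51.3% and those of the 13 below one of 56.1%. Across the 32 genes, which share libraries and are not independent, the correlation of GC content with the log2 difference of control 3 was -0.60 (Pearson), and across 6724 rows it was -0.46. The part of base composition in the control values was not tested. With a correction for GC content and transcript length in each library, a setting chosen on seeing this pattern, none of the 32 genes passed the test either and the log2 fold changes ran from -0.23 (Arsb) to 0.11 (Tpp1). There Ctsz and Tpp1 were higher and Fuca1 was lower in all 3 transgenic kidneys without overlap, where 6.74% of all rows had none.

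**Figure D5:**
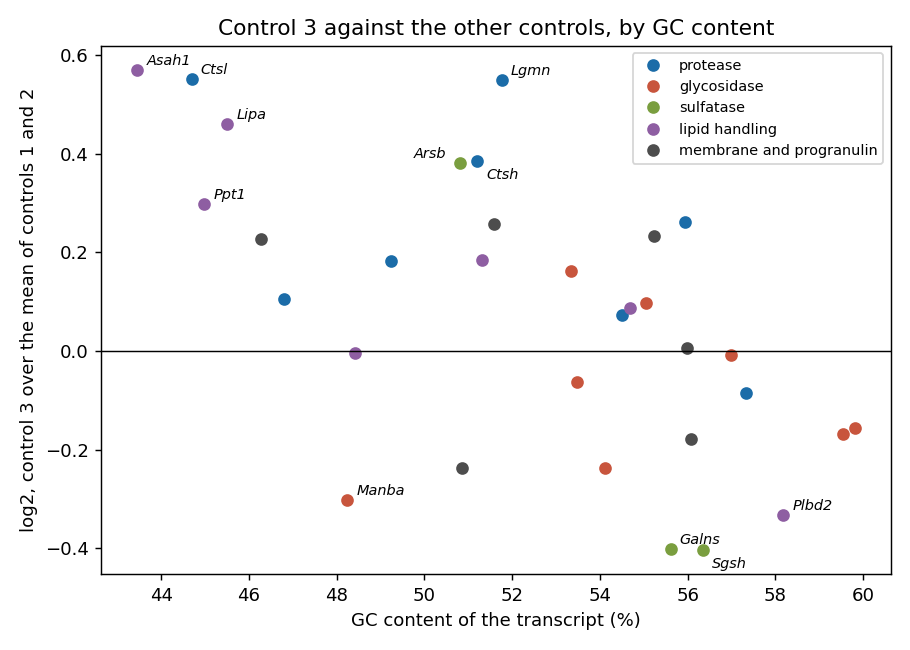
Log2 difference between control 3 and the mean of controls 1 and 2 (vertical) against the GC content of the transcript in percent (horizontal) for the 32 genes, coloured by role. Genes of low GC content such as Asah1, Ctsl and Lipa lie above 0, and GC-rich ones such as Sgsh, Galns and Plbd2 lie below it. Manba lies below 0 at a low GC content, and Ctsd and Cd63 lie above 0 at GC contents of 55.9% and 55.2%.

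Genes with and without CACGTG in the promoter window covered overlapping ranges of fold change. The 11 with it had log2 fold changes from -0.09 (Ctsd) to 0.10 (Gaa), with a median of -0.01, 5 above and 6 below 0. The 16 with a window that lacks it ran from -0.22 (Arsb) to 0.11 (Ctsz), with a median of 0.00, 8 above and 8 below 0. The 4 with TCACGTGA had a median of 0.00. No test was made between these sets.

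Among 49 measured genes of a further list for lysosomal enzymes and membrane proteins, none passed the test. Of these, 23 were above and 26 below 0, and the median log2 fold change was -0.02. The genes with the smallest p-values were Laptm4b, a transmembrane protein of late endosomes (log2 fold change -0.20), Ctns, the cystine exporter (0.20), and Sumf1 (-0.15). Laptm4b stood at 47.8 ± 2.20 CPM in transgenic and 54.8 ± 5.50 CPM in control kidneys (SD, n = 3 each). The product of Sumf1 activates sulfatases and is not itself an enzyme or membrane protein of the lysosome. Sumf1 stood at 59.7, 63.9 and 66.7 CPM in transgenic kidneys, against 72.6, 67.9 and 71.0 CPM in control kidneys. Its groups did not overlap; 3.02% of all rows were lower without overlap. Smpd1, acid sphingomyelinase, named after its values were seen, was the 1 gene of this list that was higher without overlap, where 2.96% of all rows were: it stood at 120.4, 125 and 118 CPM in transgenic kidneys, against 118, 114 and 112 CPM in control kidneys (log2 fold change 0.08). Transgenic kidney 3 and control 1 were nearly equal. Lamp2, the other main glycoprotein of the membrane coat, is on chromosome X and was not tested; it stood at 495, 534 and 577 CPM in transgenic kidneys, against 596 and 486 CPM in controls 1 and 2, and was at 0 in control 3 like all rows of X.

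None of the genes that supply, regulate or acidify lysosomes passed the test either. Of 20 sorting genes for mannose 6-phosphate and sortilin cargo, 6 were above and 14 below 0, with a median log2 fold change of -0.06, led by the retromer gene Vps35 (-0.30), at 89.9, 98.5 and 107 CPM in transgenic kidneys, against 111, 99.6 and 154 CPM in control kidneys. The adaptor genes Ap1m1 (0.11) and Ap1g1 (-0.09) followed. The TFEB and mTORC1 list, with 14 measured genes, was evenly split, 7 above and 7 below 0, with a median of 0.00. Its genes with the smallest p-values were Flcn, folliculin (0.19), the GTPase gene Rheb (-0.23) and the Rag GTPase gene Rragd (-0.12). Rheb stood at 72.1, 62.5 and 72.5 CPM in transgenic kidneys, against 78.4, 61.6 and 102.7 CPM in control kidneys. Control 3 was the highest kidney for Rheb and the lowest for Flcn. Tfeb itself, named after its values were seen, stood at 52.2, 46.8 and 46.0 CPM in transgenic kidneys, against 46.3, 50.3 and 39.9 CPM in control kidneys (0.09 ± 0.11, SE).

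Of 15 proton pump subunits 10 were below 0 (median log2 fold change -0.04). Atp6v1a, the catalytic subunit, stood at 256, 277 and 262 CPM in transgenic kidneys, against 289, 278 and 345 CPM in control kidneys, a log2 fold change of -0.20 ± 0.10 (SE; adjusted p = 0.997, edgeR). It was the 1 subunit of the 15 whose groups did not overlap, by a narrow margin between transgenic kidney 2 and control 2. Of all rows, 3.02% were lower in transgenic kidneys without overlap. Atp6v1d was at -0.11 and Atp6v1h at -0.13. Atp6v1h stood at 140, 147 and 136 CPM in transgenic kidneys, against 153, 120 and 190 CPM in control kidneys, with control 2 the lowest. Control 3 was the highest kidney for Atp6v1a, Atp6v1d and Atp6v1h. Of 17 genes for the fusion of late endosomes with lysosomes, 7 were above and 10 below 0 (median -0.01), with Vps16 at 0.15, Arl8b at -0.18 and Stx7 at -0.15.

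Macrophages also express many of these genes, so their markers were read beside them. Of 18 macrophage and dendritic cell markers 9 were listed, none of them at 0, and their sum was 311 to 382 CPM in transgenic kidneys, against 355 to 405 CPM in control kidneys. Of the 9, 8 had a log2 fold change below 0, with a median of -0.16, and none passed the test. The part of these cells in the levels of lysosomal genes was not tested.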

How the data were processed

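RNA of 3 transgenic and 3 control kidneys was sequenced on an Illumina instrument, per the labels. The genome build was mm10, per the submitters' processing notes; which aligner and which counting program were used is not given in the sources used here. Deposited were the authors' raw estimated counts, which are not whole numbers, and their normalized columns of log2 values, which served for 1 alternative. Per the file headers, rows were kept where at least 2 of 6 samples had an NRPKM between 5.0 and 84233.281, so genes below that level are not part of these results. The table holds 12 further columns of per-sample values that match none of these samples and were not used.

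Groups came from the genotype labels. Estimated counts were rounded. The 178 rows of X (176) and Y (2) were left out because all are at 0 in control 3, which widens the spread shared by all genes. The shared biological coefficient of variation was 0.133 without them and 0.259 with them. The prior degrees of freedom, which set how far each gene's spread is drawn to the shared one, were 4.44 without them and 2.40 with them. After filterByExpr, which removed 1 row, TMM and the edgeR quasi-likelihood test (version 4.0.16, R 4.3.3) were applied to 7194 rows with group as the only term. P-values were two-sided and adjusted by the Benjamini-Hochberg method, with a threshold of 0.05. Each standard error was derived from the F statistic of its gene. The analysis was tested on simulated data. Alternatives were DESeq2 (version 1.42.0) and its size factors, other filters, all rows, a block for the sample number, leaving out each library, limma (version 3.58.1) on the authors' log2 values, and adjustment for transcript GC content and length within each library, added after seeing the data. Chi-square per degree of freedom between any pair of libraries was 23.3 to 152, so none looked like a library deposited in duplicate.

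Chromosomes were looked up in RefSeq's GRCm38.p6 annotation (mm10 is the same assembly), which matched 7356 of 7373 rows. Transcript length and GC content came from GENCODE M21, for 93.4% of rows: the longest coding transcript with a RefSeq accession, or else the longest principal one. Values in every library are given for the 2 genes with the smallest p-values and the gene with the highest level per kilobase in each role, the 4 with the smallest p-values in each direction, and some others chosen after their values were seen. From other lists at most 3 genes with the smallest p-values are named. Smpd1 and Tfeb, named after their values were seen, and Lamp2, which was not tested, are given besides. The members and lists were chosen with earlier results of these data known.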

Additional observations from a re-analysis of the deposited data

How the results depend on the processing

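No lysosomal gene passed the test in any of the settings tried, and the smallest adjusted p of any of them was 0.578 (edgeR, without control 2; Arsb, Asah1 and Hexa), the 1 setting in which a lysosomal gene had an unadjusted p under 0.05. There 1 of 32 did (3.12%), against 597 of 7194 rows (8.3%). Over the whole table the count of genes called was 1, against 2 by DESeq2, 0 with all rows of X and Y included (112 at an unadjusted p under 0.05), 0 by limma on the authors' log2 values (134), and 0 to 2 when 1 library was left out; it was 2 without control 3. Of the 32 genes, 0 had no overlap between groups in the main fit, where 5.98% of all rows had none. By limma on the authors' log2 values it was 1 gene (Gaa), where 5.95% of all rows had no overlap. After the GC content and length correction it was 3 genes, where 6.74% of all rows had none. With 1 library left out it was 2 to 6 genes, where 10.1% to 24.6% of all rows had none because fewer kidneys remain. The median log2 fold change of the 32 genes ran from -0.04 to 0.01 when 1 library was left out, and was 0.01 without control 3, where 19 genes were above and 13 below 0. A summed level was not computed for the limma setting, and the filter at a mean count of 1000 left 28 of the 32 genes.

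Fold changes this close to 0 turned sign easily, and the cause was not tested. Ctsb was at 0.0027 with DESeq2 size factors, 0.00080 with the stricter filter, 0.0027 by DESeq2 and 0.0023 after the GC content and length correction. That correction also put Plbd2 at -0.046, Mcoln1 at -0.019, Gm2a at 0.0033, Naglu at -0.033, Neu1 at -0.029 and Ctsl at 0.075. With 1 library left out, log2 fold changes crossed 0 in 20 genes. The ranges were Manba from -0.047 to 0.13, Scarb2 from -0.048 to 0.097, Plbd2 from -0.096 to 0.068, Cln3 from -0.085 to 0.11 and Ctsd from -0.16 to 0.0057. Others were Mcoln1 from -0.018 to 0.041, Lamp1 from -0.10 to 0.046, Asah1 from -0.35 to 0.045, Galns from -0.17 to 0.034 and Ctsh from -0.17 to 0.065. Further ranges were Glb1 from -0.12 to 0.0044, Cd63 from -0.038 to 0.13, Gm2a from -0.067 to 0.036, Naglu from -0.030 to 0.095 and Sgsh from -0.041 to 0.19. The last were Lgmn from -0.17 to 0.17, Ctsl from -0.18 to 0.17, Ctsb from -0.065 to 0.063, Neu1 from -0.032 to 0.034 and Lipa from -0.29 to 0.037. 

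With the sample number as a replicate block, 1 gene was called, none of the 32 among them, and their median log2 fold change was -0.01. Samples with the same number share only that number: their deviations from the group means correlated at 0.0018, -0.02 and 0.33 for numbers 1, 2 and 3, and transgenic kidney 2 correlated best with control 1 (0.43), so the numbers are not read as pairs. With 3 kidneys a group, the printed intervals give the fold changes with which the data are compatible. Genes below the level at which the authors listed rows are outside these results.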
